A study of Mus musculus with 8 samples.

Results

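The 4 lungs described here came from C57BL/6 wild-type (WT) mice that had received bone marrow from donors lacking all 3 nitric oxide synthases (n/i/eNOS-/-, called NOS-null marrow) and were then kept under hypoxia for 3 days. They are 4 of the 8 lungs of the series, and the other 4 recipients, under the same hypoxia, had WT marrow. By this design the blood and immune cells from the donor lack the synthases, while the recipients' own lung cells keep the genes. The conditioning of the recipients, the share of donor cells in the lung, and the age and sex of the mice are not given in the labels. Of 23284 genes in the deposited table, the 13376 with a value of at least 10 in all 4 NOS-null marrow libraries are described here, first by how much each varied over the 4 lungs, then by which genes varied together and which stayed constant. No test was made against the WT marrow group, and with 1 group of 4 no p-value is given for any gene.

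A lung holds resident epithelium, vessels and macrophages together with blood leukocytes that come and go. Neutrophils carry granule proteins and the S100A8/S100A9 pair in large amounts, and T and B lymphocytes are marked by the parts of their antigen receptors. Interferon gamma, which lymphocytes release, switches on guanylate-binding proteins and immunity-related GTPases in most cell types. Glucocorticoid hormones from the adrenal gland act through their receptor on genes such as Fkbp5 and Zbtb16, and misfolded protein acts through heat shock factor on chaperone genes. Each of these programmes was followed here as a list of genes.

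The values are read counts that the authors had scaled between libraries, called scaled reads, and values of a gene are given in the order of replicates 1, 2, 3 and 4. A library summed to between 7767065 and 8625142, with 16952 to 17583 genes detected. The labelled tissue was checked by its markers. Sftpc, the surfactant protein C gene of alveolar type 2 cells, stood at 64852, 84310, 94477 and 86603 scaled reads, and the endothelial gene Pecam1 at 10275, 9868, 8793 and 8093. Ager, a marker of alveolar type 1 cells, stood at 17411, 17754, 19633 and 18978. The squamous keratin gene Krt5, the brown fat gene Ucp1 and the fast skeletal myosin gene Myh4 did not exceed 1.09 in any library. The Y-linked gene Ddx3y was between 1327 and 1700.3 in all 4 libraries and Xist, which is transcribed from the inactive X chromosome, between 14.8 and 29.2. Of the genes deleted in the donors, Nos1 was listed at 0 in replicates 1 to 3 and at 1.09 in replicate 4. Nos2, the inducible synthase gene of activated macrophages, stood at 13.3, 20.8, 40.4 and 43.5, and Nos3, the endothelial gene, at 177, 185, 219 and 193. Nos2 thus differed 3.26-fold between the highest and the lowest library, while Nos3 differed 1.23-fold. On principal components of the log2 values, which describe how whole libraries differ, the first held 65.1% of the variance and placed replicate 1 at 39.7, replicate 2 at 5.09, and replicates 3 and 4 at −22.8 and −22.1. The second held 22.9% and placed replicate 2, at −25.4, away from the others at 2.19 to 12.0.

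Most genes varied little and a minority varied widely. The spread of a gene is its standard deviation (SD) over the 4 libraries of log2(scaled reads + 1), so that an SD of 1 is a typical distance of 2-fold from the gene's mean. The median SD was 0.19, the middle 50% of genes lay between 0.12 and 0.30, and the highest 1% lay above 1.05. An SD of at least 0.5 was found in 1152 of the 13376 genes (8.61%), called variable here, and an SD of at least 1 in 151 (1.13%), called strongly variable. Without replicate 1 these counts were 691 and 51, and without replicate 2 they were 1292 and 231. Values differed by 2-fold or more between the highest and the lowest library in 1536 genes (11.5%), and by 10-fold or more in 30. Next to these thresholds, Fam124b had an SD of 0.5004 and Slc7a10 one of 0.4998, and Pdk4 had 1.001 and Cldn2 0.997. At the lower limit of the values, Syt17 had a lowest value of 10.3 and Pcsk4, left out, one of 9.86.

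The spread was close to that of read counting at low levels and well above it at high levels. Among the 1889 genes with a mean of 10 to 50 scaled reads, the median SD was 0.33, against 0.26 computed for counting alone from the mean value, and 19.3% were variable. Among the 3477 genes with a mean of 500 to 5000 the median SD was 0.14 against 0.048 from counting, and 5.12% were variable. The variable genes had an SD at least 1.41 times the counting SD, and in 98 of the 1152 it was under 2 times. A gene of low value with an SD near 0.5 is therefore less certain to differ between these lungs than one of high value. The plot of spread against level shows both ends.

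**Figure D1:**
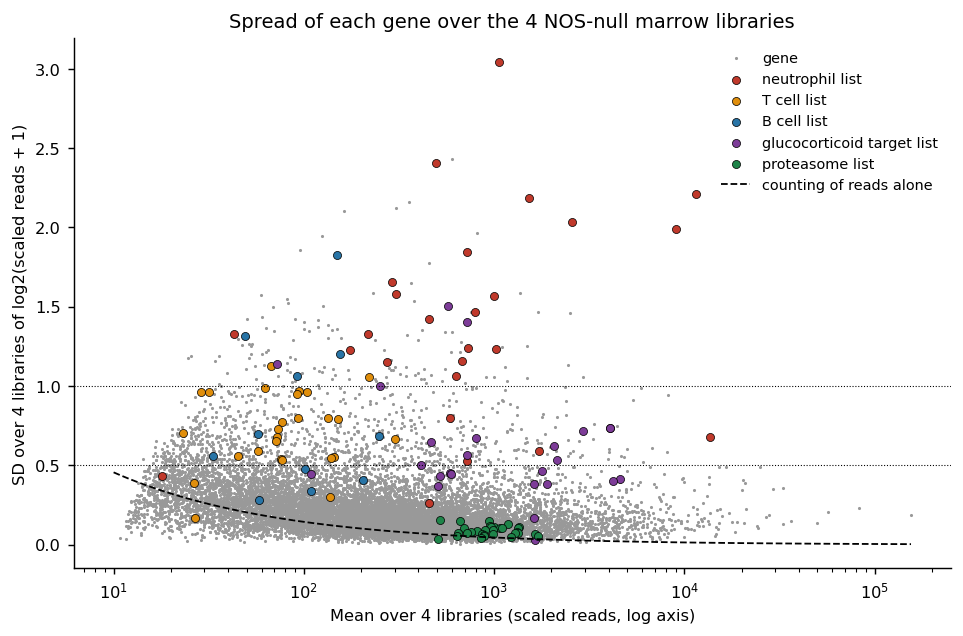
Spread of each of the 13376 genes (SD over the 4 NOS-null marrow libraries of log2(scaled reads + 1), vertical axis) against its mean over the 4 libraries (scaled reads, log axis). Grey points are genes, coloured points are members of 5 lists, the dashed line is the SD that counting of reads alone gives, and the dotted lines mark SDs of 0.5 and 1; neutrophil genes reach an SD of 3.04 while the 31 proteasome genes stay under 0.5.

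The variable genes were not spread evenly over the libraries. Replicate 1 was the highest library for 555 of the 1152 variable genes (48.2%), compared with 32.9% of all genes, and replicate 3 was the lowest for 421 (36.5%, compared with 21.4%). Replicate 2 was the highest for 218 (18.9%, compared with 21.2% of all genes), replicate 3 for 148 (12.8%, compared with 21.8%) and replicate 4 for 231 (20.1%, compared with 24.1%). Of all 13376 genes 30.8% were lowest in replicate 1 and 25.0% in replicate 4. With the libraries rescaled to equal totals, 37.2% of the genes then variable were highest in replicate 1 and 40.1% were lowest there. The authors' scaling gives 29.6% lowest in replicate 1. Shares of all genes were not computed with equal totals, and those given here for all genes belong to the authors' scaling. Among the 151 strongly variable genes replicate 1 was the highest for 110 and replicate 3 the lowest for 87. The 2 libraries with the higher values were replicates 1 and 2 for 534 variable genes (46.4%, compared with 27.5% of all genes) and replicates 3 and 4 for 275 (23.9%, compared with 26.8%). On log2 values a single library stood apart, by a gap past Dixon's 95% critical value for 4 values, in 85 variable genes (7.38%, compared with 5.41% of all genes). Replicate 1 was the library apart in most of these, high in 33 and low in 29. This split by library was not made for all genes, so an excess in replicate 1 cannot be read from it.

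Lists of genes were used to say which genes moved together. For each list and library the mean deviation is the mean, over the list's genes, of log2(scaled reads + 1) less that gene's own 4-library mean. The list's spread is the SD of these 4 numbers, and its togetherness is that spread divided by the root mean square SD of its genes, which is 1 when all members move alike. Of 49 lists with at least 5 genes, the neutrophil list had the largest spread (1.32), followed by the interferon gamma list (0.71), the T cell list (0.66), the B cell list (0.60), the platelet list (0.59) and the glucocorticoid target list (0.55). In whole-lung RNA a lower value can mean fewer cells of a type or less RNA in each, and these cannot be told apart. Of the 1152 variable genes 267 (23.2%) belong to a list, compared with 1059 of all 13376 genes. Most variable genes are thus in none.

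**Figure D2:**
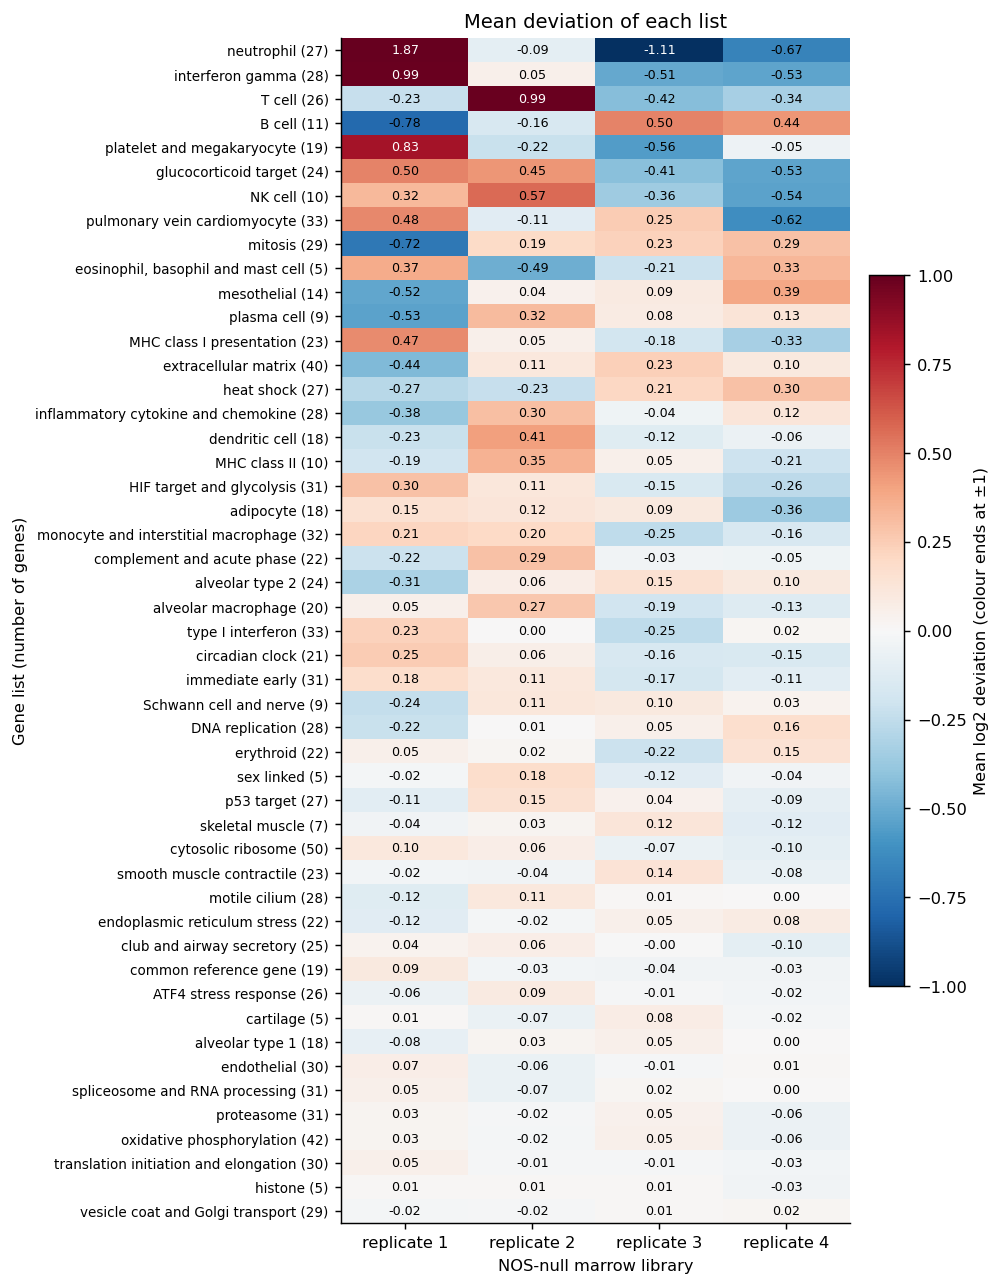
Mean log2 deviation of each of 49 gene lists (rows, with the number of genes, ordered by spread) in each NOS-null marrow library (columns). Red is above and blue below the gene's mean over the 4 libraries; replicate 1 is high for neutrophil (1.87) and interferon gamma (0.99) genes, replicate 2 for T cell genes (0.99), and the lower rows lie within 0.1 of 0 in most libraries.

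Neutrophil genes made up the widest differences and were highest in replicate 1. Ngp, which encodes a neutrophil granule protein and had the largest SD of all 13376 genes (3.04), stood at 3907, 261, 34.5 and 58.7 scaled reads. S100a8, a chain of calprotectin, which fills the neutrophil cytosol, stood at 39729, 3246, 1428 and 1736 (SD 2.21), and its partner S100a9 at 29866, 2961, 1489.8 and 1857 (SD 1.99). Replicate 1 lay far above the others in all 3, replicate 2 came second, and replicates 3 and 4 were lowest. The decoy interleukin-1 receptor gene Il1r2 stood at 1684, 204, 46.3 and 51.1 (SD 2.40). The collagenase gene Mmp8 stood at 5017, 633, 165 and 255 (SD 2.19), and the resistin-like gene Retnlg at 8178, 1079, 299.7 and 659 (SD 2.03). Cxcr2, the receptor through which neutrophils follow chemokines out of the marrow and into tissue, stood at 2767, 621, 212 and 407 (SD 1.57), a 13.1-fold range.

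Of the 27 neutrophil genes measured at 10 or more throughout, 25 were variable (92.6%, compared with 8.61% of all genes). Strongly variable were 20 (compared with 1.13%), and 25 were highest in replicate 1 (compared with 32.9%). The list's mean deviation was 1.87, −0.09, −1.11 and −0.67, and its togetherness 0.87. Without replicate 1 its spread was 0.51, which still placed replicate 2 above replicates 3 and 4. The 9 listed neutrophil genes that were under 10 in some library, and so are not among the 13376, were also all highest in replicate 1. They include granule genes that neutrophils express early in their development in the marrow. Mpo, the myeloperoxidase gene, stood at 54.3, 13.5, 0 and 2.18, and Elane, the neutrophil elastase gene, at 32.8, 5.21, 0.991 and 0. The cathelicidin gene Camp stood at 604, 63.5, 7.89 and 12.0. The 2 genes not highest in replicate 1 were G0s2, an inhibitor of fat breakdown, at 384, 389, 490.0 and 558, and the chemokine gene Cxcl2, at 20.5, 21.9, 10.8 and 18.5. Ltf, the lactoferrin gene, which airway glands also make, stood at 2159, 904, 1666 and 2159 and was nearly equal in replicates 1 and 4.

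Genes outside the list were also highest in replicate 1. Ifitm6, of the interferon-induced transmembrane family, stood at 2184, 101, 61.1 and 70.7 (SD 2.43), and the aspartic protease gene Asprv1 at 1209.8, 112, 39.4 and 68.5 (SD 2.16). Pira1 and Pira7, activating Ig-like receptors of myeloid cells, stood at 1116, 99.4, 115 and 128 and at 303, 31.9, 14.4 and 33.2, and since Pira genes are close copies of each other their reads can be moved between them. Il1r2 was the gene whose profile lay nearest to that of Ngp, within 0.88 log2 units in every library. No gene lay within 0.5 in every library.

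Monocyte genes split. Over the 32 genes of the monocyte and interstitial macrophage list, 16 were variable (compared with 8.61% of all genes), and the togetherness was 0.39. Ly6c2, which marks classical blood monocytes, stood at 761, 322, 146 and 150.1 (SD 1.12), and the chemokine receptor gene Ccr2 at 2489, 931, 602 and 818 (SD 0.88). Both were highest in replicate 1. Ms4a7, a gene of resident macrophages, stood instead at 30.8, 123, 51.3 and 41.3 (SD 0.85), and the complement gene C1qa at 566, 1436, 725 and 659, both highest in replicate 2. The lysozyme gene Lyz2, at 33933, 42138, 34390 and 34977, was among the steadiest of the list (SD 0.15). In all, 19 of the 32 were highest in replicate 2 (compared with 21.2% of all genes) and 10 in replicate 1 (compared with 32.9%).

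Platelet genes were also highest in replicate 1. Gp9, part of the platelet receptor for von Willebrand factor, stood at 128, 32.3, 16.8 and 33.7 (SD 1.20), and its partner Gp1bb at 198, 42.4, 43.9 and 63.8 (SD 1.03). The platelet chemokine gene Ppbp stood at 435, 134, 85.8 and 144 (SD 0.99), and Nfe2, a transcription factor of platelet formation, at 309, 68.7, 63.1 and 124. Of 19 platelet genes 14 were variable (73.7%, compared with 8.61% of all genes). Highest in replicate 1 were 16 (compared with 32.9%), and 14 were lowest in replicate 3 (compared with 21.4%). The mean deviation was 0.83, −0.22, −0.56 and −0.05 and the spread 0.59, or 0.26 without replicate 1. Gp9 had 77 genes within 0.5 log2 units of its profile in every library. Rasgrp4, Nlrp1b, Relt and Hk3 were among the nearest, within 0.16, and none of them is in the platelet list. Of these, the mast cell and neutrophil signalling gene Rasgrp4 stood at 260.4, 67.7, 41.4 and 81.6 and the hexokinase gene Hk3, which is high in myeloid cells, at 226, 67.7, 37.5 and 62.0. The neutrophil list moved the same way, and its part in the platelet values was not tested.

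**Figure D3:**
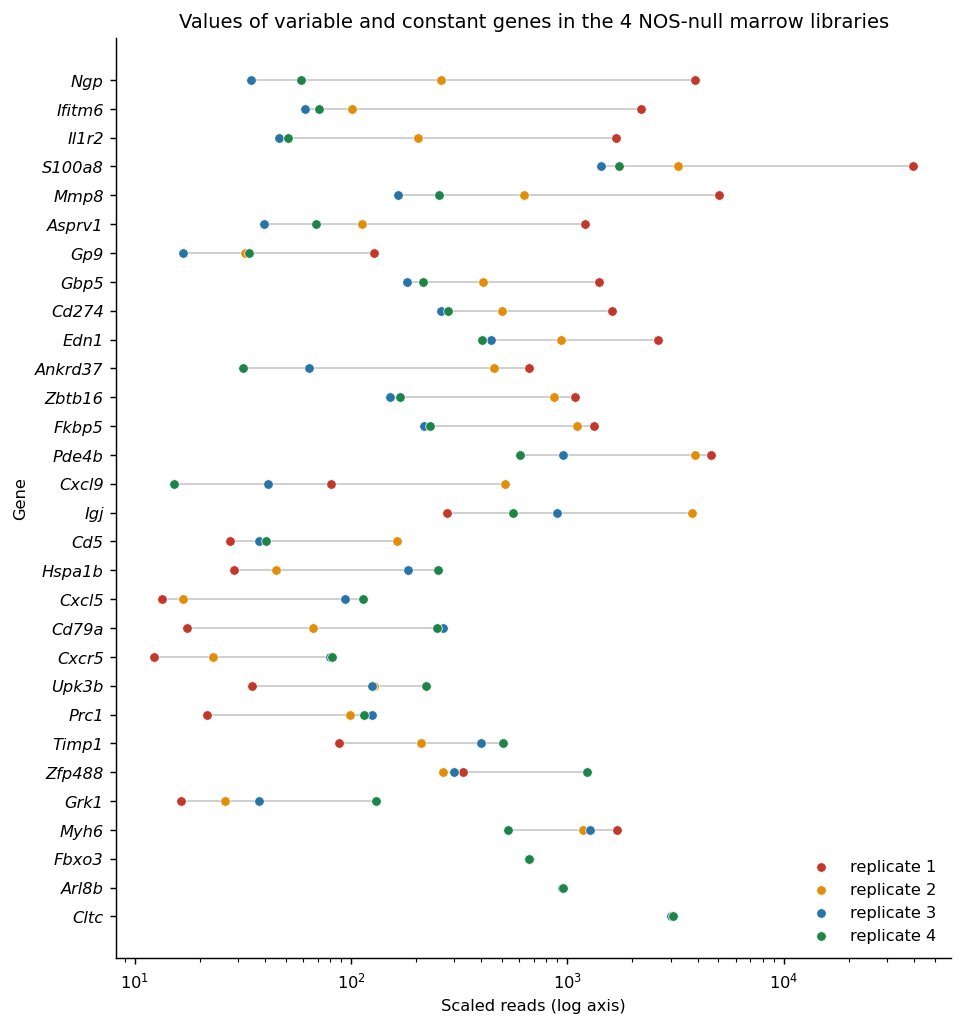
Scaled reads (log axis) of 30 genes of large or small spread in the 4 NOS-null marrow libraries, 1 coloured point per library, joined by a grey line. Ngp runs from 34.5 in replicate 3 to 3907 in replicate 1, while the 4 points of Fbxo3, Arl8b and Cltc coincide.

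Genes induced by interferon gamma were highest in replicate 1 as well. Gbp5 and Gbp2, which encode guanylate-binding proteins that attack the vacuoles of intracellular microbes, are printed because they carry the group's textbook promoter motif. The motif is the interferon-stimulated response element, searched on both strands as TTTC and TTTC with 2 free bases between, in windows from 250 bases before to 50 bases after RefSeq start sites (GRCm38.p6, the assembly also called mm10). The 250 bases before each start are shown 5′ to 3′ on the gene's strand, with the motif in capitals. The stretch of Gbp5 is chr3:142496684-142496933 and that of Gbp2 chr3:142620413-142620662, both on the plus strand.
Gbp5: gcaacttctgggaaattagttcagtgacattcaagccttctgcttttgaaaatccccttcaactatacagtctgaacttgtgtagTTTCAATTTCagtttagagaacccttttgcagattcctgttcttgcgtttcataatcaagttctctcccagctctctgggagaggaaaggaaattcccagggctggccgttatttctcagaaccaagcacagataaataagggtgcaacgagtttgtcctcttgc
Gbp2: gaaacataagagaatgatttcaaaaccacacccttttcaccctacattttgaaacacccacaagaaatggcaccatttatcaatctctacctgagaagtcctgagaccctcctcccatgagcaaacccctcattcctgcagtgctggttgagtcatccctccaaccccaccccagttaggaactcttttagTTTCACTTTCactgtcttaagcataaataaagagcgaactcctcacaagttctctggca
The match begins 165 bases before the start of Gbp5 and 59 bases before that of Gbp2. A match was present in 11 of the 16 list members with a promoter searched. Counted by promoter, it was in 11 of their 18 (61.1%), compared with 3.44% of all 32851 promoters. The promoters of Cxcl9 and Cd274 held no match in this window. A match describes the letters and not a bound site.

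Their values differed widely between the lungs. Gbp5 stood at 1408, 409, 180.4 and 215 scaled reads (SD 1.34), and Gbp2 at 5879, 1683, 1176 and 1072 (SD 1.13). The immunity-related GTPase gene Iigp1 stood at 6787, 1987, 1528 and 1399 (SD 1.06). In each of these the value of replicate 1 was over 3 times that of replicate 2, and replicates 3 and 4 were lower still. Cd274, which encodes the T cell inhibitory ligand PD-L1, stood at 1613, 498, 259 and 281 (SD 1.22). Of the 28 interferon gamma genes 23 were variable (82.1%, compared with 8.61% of all genes). Strongly variable were 10 (compared with 1.13%), and 23 were highest in replicate 1 (compared with 32.9%). The list's mean deviation was 0.99, 0.05, −0.51 and −0.53 (spread 0.71, togetherness 0.74), and its spread was 0.33 without replicate 1. Reads of Gbp genes can be moved between close copies, and the part of this in their values was not tested. The summed level of the whole list, which holds other genes too, stood at 55076, 21082, 15693 and 15265.

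The chemokine genes of this response did not follow the GTPases. Cxcl9, whose product draws activated T cells, stood at 81.0, 514, 41.4 and 15.2 (SD 2.11), and Cxcl10, which shares its receptor, at 58.4, 322, 93.7 and 211 (SD 1.10). Both were highest in replicate 2, and replicate 4, the lowest library for Cxcl9, was the second highest for Cxcl10. Nos2, itself induced by interferon gamma in macrophages, was lowest in replicate 1, at 13.3. It is one of the genes deleted in the donors, and which cells its reads came from was not tested. The feedback inhibitor gene Socs1 was nearly level at 72.8, 59.3, 67.0 and 74.0 (SD 0.14).

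Genes of class I antigen presentation moved less than the GTPases. Tap1, a subunit of the peptide transporter, stood at 2569, 1163, 929.8 and 848 (SD 0.73), and the immunoproteasome gene Psmb9 at 856, 492, 377 and 350.2 (SD 0.58). B2m, the light chain of class I molecules, stood at 30307, 33289, 20477 and 16122 (SD 0.49), highest in replicate 2. Of 23 genes 5 were variable (21.7%, compared with 8.61% of all genes) and 20 were highest in replicate 1 (compared with 32.9%). The mean deviation was 0.47, 0.05, −0.18 and −0.33 and the spread 0.35, or 0.19 without replicate 1. Genes of the type I interferon response, which viral RNA and DNA set off, had a smaller spread of 0.20, or 0.13 without replicate 3. Of 33 such genes 21 were highest in replicate 1 (compared with 32.9% of all genes) and 22 lowest in replicate 3 (compared with 21.4%). Variable were 8 of the 33 (24.2%, compared with 8.61%). Oas3, a sensor of double-stranded RNA, stood at 353, 90.6, 37.5 and 57.6 (SD 1.39). The antiviral GTPase gene Mx1 stood at 22.6, 37.5, 32.5 and 80.5 (SD 0.75), with replicate 4 the highest.

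Replicate 1 was the lowest library for B cell genes. Cd79a, a signalling chain of the B cell receptor, stood at 17.4, 66.6, 265 and 250.2 scaled reads (SD 1.83), and its partner Cd79b at 43.1, 89.5, 246 and 238 (SD 1.20). Cxcr5, the receptor that leads B cells into follicles, stood at 12.3, 22.9, 79.9 and 81.6 (SD 1.31). Replicates 3 and 4 were high and close to each other in all 3 genes, and replicate 2 lay between. Of 11 B cell genes 7 were variable (compared with 8.61% of all genes) and 8 were lowest in replicate 1 (compared with 30.8%). The mean deviation was −0.78, −0.16, 0.50 and 0.44 (spread 0.60, or 0.37 without replicate 1). Another 12 listed B cell genes were under 10 in at least 1 library, and replicate 1 was the lowest for all 12. Among them Ms4a1, the gene of CD20, stood at 3.08, 42.7, 186 and 196. Cd37, a tetraspanin gene shared with other leukocytes, went the other way at 448, 151, 179 and 212.

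Mitosis genes were lowest in replicate 1 and level in the other 3 libraries. Prc1, which bundles microtubules of the dividing spindle, stood at 21.5, 98.9, 125 and 114 (SD 1.17), and Top2a, the topoisomerase that untangles chromosomes, at 109, 298, 273 and 310.0 (SD 0.72). The proliferation marker gene Mki67 stood at 170.2, 281, 224 and 281 (SD 0.34). Of 29 mitosis genes 28 were lowest in replicate 1 (compared with 30.8% of all genes), and 16 were variable (compared with 8.61%). The mean deviation was −0.72, 0.19, 0.23 and 0.29, and the spread of 0.48 became 0.05 without replicate 1. The exception was Mybl2, a cell cycle transcription factor gene, at 19.5, 11.5, 14.8 and 10.9. DNA replication genes varied less, with a spread of 0.16, or 0.08 without replicate 1, and 16 of 28 genes were lowest in replicate 1 (compared with 30.8% of all genes). Only 3 of the 28 were variable, a share of 10.7% that is near the 8.61% of all genes.

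Matrix and mesothelial genes showed the same library as lowest. Col3a1, the fibrillar collagen III gene of fibroblasts, stood at 2792, 7591, 11264 and 11096 (SD 0.94), and Timp1, an inhibitor of matrix metalloproteinases, at 88.2, 210.3, 397 and 505 (SD 1.12). Tnc, the gene of the injury-associated glycoprotein tenascin C, stood at 143, 182, 358 and 359 (SD 0.68). Of 40 matrix genes 30 were lowest in replicate 1 (compared with 30.8% of all genes) and 10 were variable (compared with 8.61%). The mean deviation was −0.44, 0.11, 0.23 and 0.10 and the spread 0.30, or 0.08 without replicate 1. The basement membrane collagen gene Col4a1 was nearly level, at 8345, 9423, 9297 and 8318 (SD 0.10). Spp1, the osteopontin gene, stood apart from the list at 2299.7, 3215, 1696 and 1233. Mesothelial cells cover the outer surface of the lung, and their genes Upk3b, at 34.9, 127, 125 and 223 (SD 1.12), and Lrrn4, at 12.3, 62.5, 53.2 and 126 (SD 1.37), were lowest in replicate 1 and highest in replicate 4. The keratin gene Krt18, which mesothelium shares with alveolar epithelium, was level at 847, 773, 779.9 and 774. Of the 14 mesothelial genes 4 were variable (compared with 8.61% of all genes) and 10 were lowest in replicate 1 (compared with 30.8%), with a spread of 0.38, or 0.19 without it.

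Alveolar type 2 cell genes were lowest in replicate 1 too, by less. Over 24 genes, 22 were lowest there (compared with 30.8% of all genes). Only 3 were variable, a share of 12.5% that is near the 8.61% of all genes. The mean deviation was −0.31, 0.06, 0.15 and 0.10 (spread 0.21, or 0.05 without replicate 1). Il33, the alarmin gene, was the widest of these at 289, 486, 1125 and 1172 (SD 0.98). Lcn2, a siderophore-binding protein gene that neutrophils also express, ran the other way at 6464, 5047, 2573 and 2276 (SD 0.73). The surfactant gene Sftpc, the most abundant of the list, had an SD of 0.23. Neutrophil genes were high in the same library, and their part in the lower values of other lists was not tested.

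**Figure D4:**
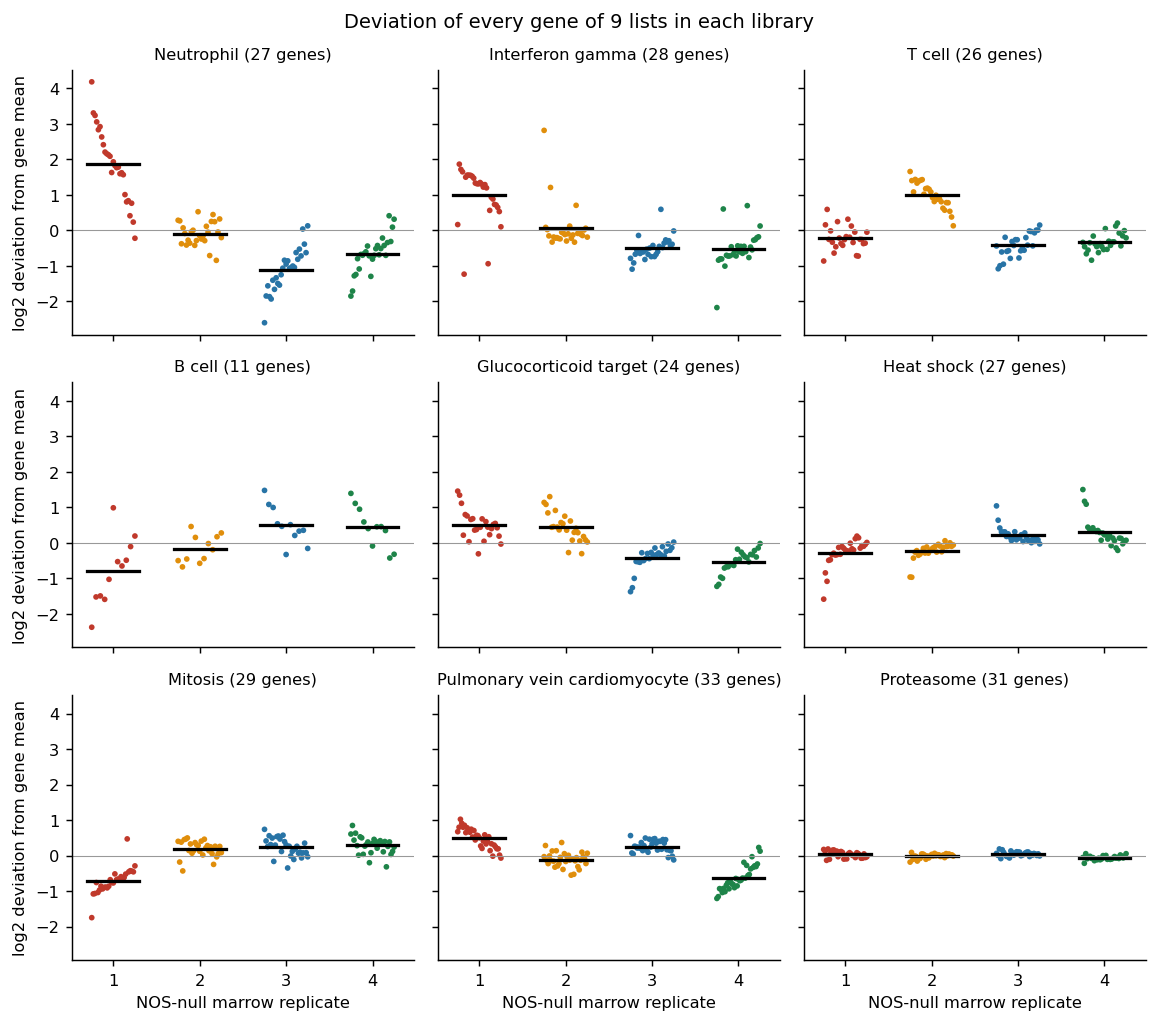
Deviation of every member of 9 gene lists from its own mean (log2 units, vertical axis) in each NOS-null marrow library (replicates 1 to 4, horizontal axis). Each point is 1 gene and each black bar the list's mean; nearly all neutrophil genes lie above 0 in replicate 1, T cell genes in replicate 2 and none of the 31 proteasome genes departs far from 0.

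Replicate 2 was marked by T cell genes. Cd5, a surface regulator of T cell receptor signals, stood at 27.7, 163, 37.5 and 40.2 scaled reads (SD 1.12), and Cd4, the co-receptor gene of helper T cells, at 54.3, 228, 56.2 and 76.1 (SD 0.96). Il7r, a survival receptor of resting T cells, stood at 199, 473, 83.8 and 129 (SD 1.06). Replicate 2 was the highest library in all 3, and for Cd5 and Cd4 the other 3 libraries lay close together. Of 26 T cell genes 25 were highest in replicate 2 (compared with 21.2% of all genes) and 23 were variable (compared with 8.61%). The list's mean deviation was −0.23, 0.99, −0.42 and −0.34 with a togetherness of 0.88, and its spread of 0.66 became 0.10 without replicate 2. The transcription factor gene Lef1 was the steadiest member, at 25.6, 29.2, 29.6 and 22.8 (SD 0.17).

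Genes that lay nearest to Cd5 over the 4 libraries were Cd4 (within 0.25 log2 units in every library), Ccl22, Icos, Cxcl13 and Ms4a7 (within 0.47). Icos is a co-stimulatory receptor of activated T cells, Ccl22 a chemokine of dendritic cells, and Cxcl13 the chemokine that draws B cells. Ccl22 stood at 19.5, 115, 24.6 and 39.2 (SD 1.11), and Cxcl13 at 114, 572, 224 and 259.9 (SD 0.95). Cxcr3, the receptor for the Cxcl9 product, stood at 39.98, 149, 34.5 and 23.9 (SD 1.13) and was the gene nearest to Cxcl9, although it differed from it by up to 1.22.

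The antibody gene Igj and most class II antigen-presentation genes were highest in replicate 2 as well. Igj, the joining chain of secreted IgM and IgA, stood at 279, 3767, 895 and 560.1 (SD 1.59). Of the 9 plasma cell genes 3 were highest in replicate 2 (compared with 21.2% of all genes) and 4 in replicate 4 (compared with 24.1%). Only Igj and Pou2af1 were variable, and Pou2af1, a B lineage co-activator gene, stood at 25.6, 109, 115 and 119.6, low in replicate 1 alone. The class II genes H2-Eb1 and H2-Aa, which present peptides to helper T cells, stood at 3969, 7552, 4046 and 3024 and at 5842, 10266, 5643 and 4636. Replicate 2 was the highest for both and for 6 of the 10 class II genes (compared with 21.2% of all genes). The mean deviation was −0.19, 0.35, 0.05 and −0.21 (spread 0.26, or 0.15 without replicate 2). H2-Ob, part of the peptide-loading regulator DO of B cells, followed the B cell genes instead, at 45.1, 79.1, 149 and 163. Ciita, also on the class II list, was highest in replicate 1, at 828, 434, 373 and 307 (SD 0.62). Dendritic cell genes had a mean deviation of −0.23, 0.41, −0.12 and −0.06, with a spread of 0.28 that became 0.08 without replicate 2. Siglech, a marker of plasmacytoid dendritic cells, was lowest in replicate 1 at 14.4, 38.5, 50.3 and 55.5.

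A different division set replicates 1 and 2 apart from replicates 3 and 4. It was clearest for glucocorticoid target genes. Zbtb16, a transcription factor gene, stood at 1087, 871, 152 and 169 scaled reads (SD 1.51), and Fkbp5, a co-chaperone that dampens the glucocorticoid receptor, at 1326, 1107, 217 and 232 (SD 1.41). The hypoxia-inducible factor gene Hif3a stood at 127, 105, 28.6 and 29.4 (SD 1.14). In these 3 genes both higher libraries lay over 3 times above both lower ones. The kinase gene Sgk1 stood at 4539, 3683, 1835 and 1680.4 (SD 0.72), and Tsc22d3, the gene of the anti-inflammatory protein GILZ, at 5425, 5010.3, 3181 and 3281 (SD 0.40). Rhob, also on the list, was level at 1609, 1675, 1671 and 1626 (SD 0.03).

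Of 24 glucocorticoid targets, 20 were higher in both replicates 1 and 2 than in both replicates 3 and 4 (compared with 27.5% of all genes), and none had the reverse order. Variable were 12 (compared with 8.61% of all genes) and strongly variable 4 (compared with 1.13%). The mean deviation was 0.50, 0.45, −0.41 and −0.53, and the spread was between 0.51 and 0.58 with any 1 library left out. With equal library totals replicate 2, not replicate 1, was the highest. Fkbp5 was the gene nearest to Zbtb16, within 0.11 log2 units in every library. Ly6i, Hif3a, Pde4b and Galntl2 followed within 0.47. Pde4b, a phosphodiesterase that breaks down cyclic AMP, stood at 4640.4, 3885, 953 and 607 (SD 1.46). Circadian clock genes, some of which glucocorticoids also drive, had a mean deviation of 0.25, 0.06, −0.16 and −0.15, and the core clock gene Clock was level (SD 0.05). The hour of sampling is not given in the labels.

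The better measured natural killer (NK) cell genes and several macrophage genes had the same division. Ccl5, a chemokine of NK and T cells, stood at 228, 269, 83.8 and 72.9 (SD 0.96), and the granzyme gene Gzmb at 75.9, 47.9, 25.6 and 16.3 (SD 0.95). Of 10 NK genes, 7 were variable (compared with 8.61% of all genes). Higher in replicates 1 and 2 than in replicates 3 and 4 were 7 (compared with 27.5%). The mean deviation was 0.32, 0.57, −0.36 and −0.54 and the spread 0.53. The other 16 of the 26 listed NK genes were under 10 in at least 1 library, and they had no common library. Replicates 1 to 4 were the highest for 6, 3, 5 and 2 of them. Ncr1, the NK receptor gene that defines the lineage, is one of these and ran opposite, at 1.03, 1.04, 13.8 and 16.3. Lpl, the lipoprotein lipase gene of alveolar macrophages and fat, stood at 8656, 7371, 3101 and 2387 (SD 0.91), and the chitinase-like gene Chi3l3, of macrophages and neutrophils, at 22258, 14784, 7576 and 9830.0 (SD 0.68).

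Hypoxia genes divided in part the same way. Ankrd37, a target of hypoxia-inducible factor 1, stood at 664, 459, 64.1 and 31.5 (SD 2.12, a 21.1-fold range), and Edn1, the gene of the vasoconstrictor endothelin 1, at 2621, 936, 445 and 404 (SD 1.25). Epas1, which encodes hypoxia-inducible factor 2 alpha, stood at 22425, 15938, 11778 and 10506 (SD 0.49). In all 3 replicate 1 was the highest, replicate 2 came second, and replicates 3 and 4 were lowest. Of the 31 genes of the hypoxia and glycolysis list 6 were variable (19.4%, compared with 8.61% of all genes). Higher in replicates 1 and 2 than in both others were 15 (compared with 27.5%). Lowest in replicate 4 were 17 (compared with 25.0%), and the togetherness was 0.46. Hif1a (SD 0.05) and the glycolytic enzyme gene Pgam1 (SD 0.03) were constant, at 1031, 1043, 970.2 and 976 and at 1246, 1269, 1268 and 1311.

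Heat shock genes ran opposite, low in replicates 1 and 2 and high in replicates 3 and 4. The promoter of Hspa1b, the stress-inducible Hsp70 gene and the widest of the list, is printed because it carries the core of the heat shock element. The full element was searched as GAA, TTC and GAA with 2 free bases between each, and its core as GAA and TTC with 2 free bases between, both on both strands and in the same windows as above, and every full element contains a core. The stretch of Hspa1b is chr17:34959239-34959488 on the minus strand, the 250 bases before its start, shown 5′ to 3′ on that strand, with the core in capitals.
Hspa1b: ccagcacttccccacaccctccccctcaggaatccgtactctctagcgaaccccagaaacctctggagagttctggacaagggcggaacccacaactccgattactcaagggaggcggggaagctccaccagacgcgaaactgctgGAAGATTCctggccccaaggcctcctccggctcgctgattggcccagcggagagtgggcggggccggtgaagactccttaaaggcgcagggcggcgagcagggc
The core begins 104 bases before the start. The core was present for 13 of the 22 list members with a promoter searched. Counted by promoter, it was in 15 of their 30 (50%), compared with 7.86% of all promoters. The full element was present for 5 of the 22, and in 7 of the 30 promoters (23.3%), compared with 0.603% of all. No full element was found in the window of Hspa1b or in that of Hspa1a. Here too a match describes letters only.

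Hspa1b stood at 28.7, 44.8, 182 and 251 scaled reads (SD 1.50), and its near-identical copy Hspa1a at 42.0, 38.5, 119 and 173 (SD 1.07). Because reads can be moved between the copies their sum was also taken, and it stood at 70.7, 83.3, 302 and 424 (SD 1.29). Hsph1, which exchanges nucleotide on Hsp70, stood at 145, 228, 411 and 655 (SD 0.95), and the co-chaperone gene Dnaja1 at 1482, 1739.8, 2582 and 2834 (SD 0.45). Replicates 3 and 4 were above replicates 1 and 2 in each of these. Over the list, 21 of 27 genes had this order (compared with 26.8% of all genes), though only 3 were variable. That share of 11.1% is near the 8.61% of all genes. The mean deviation was −0.27, −0.23, 0.21 and 0.30, and the spread of 0.29 stayed between 0.27 and 0.32 with any 1 library left out. Hspa4 (SD 0.06) and Ahsa1 (SD 0.08), also chaperone genes, were constant.

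Some chemokine and growth factor genes shared this order. Cxcl5, a neutrophil-attracting chemokine of alveolar epithelium, stood at 13.3, 16.7, 93.7 and 113 (SD 1.57), and Areg, the gene of the epidermal growth factor receptor ligand amphiregulin, at 15.4, 47.9, 101 and 95.7 (SD 1.23). Retnla, the resistin-like gene that hypoxia and type 2 cytokines induce in lung, stood at 2501, 3084, 7869.9 and 10087 (SD 0.99). These were also the libraries in which neutrophil genes were low and B cell genes high, and Areg, Hspa1b and Cxcl5 were 3 of the 5 genes nearest to Cd79a, within 0.68 to 0.87 log2 units. The cytokine and chemokine list as a whole had 16 variable genes of 28 (57.1%, compared with 8.61% of all genes). Its togetherness was only 0.35, since its members followed different libraries.

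Replicate 4 differed by heart muscle genes. Cardiac muscle sheathes the pulmonary veins of mice, and Myh6, the alpha myosin heavy chain gene, stood at 1693, 1183, 1276 and 534 scaled reads (SD 0.71). The mitochondrial creatine kinase gene Ckmt2 stood at 111, 67.7, 103 and 29.4 (SD 0.86), and the titin cap gene Tcap at 273, 191, 165 and 69.6 (SD 0.83). Of 33 such genes 28 were lowest in replicate 4 (compared with 25.0% of all genes), 25 were highest in replicate 1 (compared with 32.9%) and 18 were variable (compared with 8.61%). The mean deviation was 0.48, −0.11, 0.25 and −0.62 (togetherness 0.85), with a spread of 0.48 that became 0.30 without replicate 4. Myh7, the slow myosin heavy chain gene, was highest in replicate 4 at 118, 100, 115 and 137. Fat cell genes were lowest there in part. Of 18 genes 11 were lowest in replicate 4 (compared with 25.0% of all genes) and 7 in replicate 1 (compared with 30.8%). Variable were 4 (22.2%, compared with 8.61%). Adipoq, the adiponectin gene, stood at 44.1, 24.99, 38.5 and 13.1 (SD 0.76), and the lipogenic gene Thrsp at 42.0, 60.4, 54.2 and 17.4 (SD 0.79), and the list's spread of 0.24 became 0.03 without replicate 4. The most abundant member, the desaturase gene Scd1, which alveolar type 2 cells also express, was lowest in replicate 1, at 12097, 16377, 16794 and 14003. The skeletal muscle list had a spread of 0.10.

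A few genes of unlike function were high in replicate 4 alone. Zfp488, a zinc finger gene, stood at 329, 266, 299.7 and 1232 (SD 1.03), and the odorant receptor gene Olfr613 at 162, 147, 155 and 636 (SD 1.02). The odorant receptor pseudogene Olfr856-ps1 stood at 135, 145, 176 and 687 (SD 1.10), and the rhodopsin kinase gene Grk1 at 16.4, 26.0, 37.5 and 131 (SD 1.25). In each of these 4 the value of replicate 4 was over 3 times that of any other library. Replicate 4 also had the most genes seen in 1 library only, with 718 genes above 0 there and at 0 in the other 3, against 258 to 273 for the other libraries. Reads between 0 and 10 were found for 3597 genes there, against 2964 to 3091. The part of these low values in the 4 genes was not tested. Alox15, a lipoxygenase gene of macrophages and eosinophils, was also highest in replicate 4, at 33.8, 13.5, 45.4 and 121 (SD 1.26), but lowest in replicate 2.

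Replicate 3 stood apart in few genes. Above the others it was marked by Dzip3, a ubiquitin ligase gene, at 51.3, 88.5, 175 and 100.1 (SD 0.72). Below the others it was marked by Btg3, an anti-proliferative gene, at 570.0, 365, 124 and 357 (SD 0.93), and by Pira2, at 108, 117, 11.9 and 39.3 (SD 1.50). The pyrin gene Mefv, of neutrophils and monocytes, stood at 111, 43.7, 15.8 and 51.1 (SD 1.12), lowest in replicate 3 as most neutrophil genes were.

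Red cell genes illustrate how copies can vary apart. The alpha globin genes Hba-a1 and Hba-a2, which are near-identical, stood at 3525, 4644, 2119 and 7326 (SD 0.75) and at 9254, 6515, 7729 and 3499.5 (SD 0.61). Replicate 4 was the highest for the first and the lowest for the second, and their sum stood at 12779, 11159, 9849 and 10825 (SD 0.16). Hbb-b1, a beta globin gene, had an SD of 0.16. Similarly Amd1, of a pair of S-adenosylmethionine decarboxylase genes, stood at 1243, 1536, 1.48 and 1.47 and Amd2 at 1669, 1071, 2267 and 1792, and the SD of their sum was 0.30. The erythroid list had a spread of 0.15 over 22 genes, or 0.07 without replicate 3.

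At the other end, 1123 of the 3671 genes with a mean of at least 500 scaled reads had an SD under 0.1 (30.6%), called constant here. Over all 13376 genes 18.5% had an SD under 0.1. Fbxo3, a subunit of a ubiquitin ligase, was the steadiest at 668, 666, 662 and 662 scaled reads (SD 0.0071). Arl8b, a small GTPase that moves lysosomes, stood at 945, 944, 944 and 955 (SD 0.00806), and Cltc, the clathrin heavy chain gene, at 3054, 3027, 3026 and 3096 (SD 0.0156). The 4 libraries coincide in these genes. Others among the 15 steadiest were the kinase gene Mapk9, the nuclear pore gene Seh1l, the polycomb gene Bmi1, the histone variant gene H2afz, the epithelial adhesion gene Epcam and the basement membrane collagen gene Col4a4, which range from epithelial to universal genes. Without replicate 1 the constant genes numbered 1691.

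Several lists of the cell's basic machinery held many constant genes. Of the 25 genes of vesicle coats and Golgi transport with a mean of at least 500, 19 were constant (76.0%, compared with 30.6% of all genes at that mean). The same held for 19 of 31 proteasome genes (61.3%) and 17 of 32 oxidative phosphorylation genes (53.1%), and none of these 3 lists had a variable gene. Spliceosome genes, with 6 of 19 constant (31.6%), were near the share of all genes. The median SD was 0.08 in the vesicle coat and proteasome lists and 0.09 for oxidative phosphorylation, compared with 0.19 over all genes. Cytosolic ribosomal protein genes moved slightly but together. None of 50 was variable, and 46 were higher in replicates 1 and 2 than in replicates 3 and 4 (compared with 27.5% of all genes). The mean deviation was 0.10, 0.06, −0.07 and −0.10. With equal library totals replicate 2 was the highest and replicate 3 the lowest. Endothelial genes had a list spread of only 0.05, but 7 of the 30 were variable (23.3%, compared with 8.61% of all genes). They varied in different directions, so that the list's togetherness was 0.14. Bmx, a kinase gene of arterial endothelium, stood at 285, 102, 95.6 and 100.1 (SD 0.76), highest in replicate 1, and Aplnr, the apelin receptor gene, at 32.8, 34.4, 74.9 and 106 (SD 0.82), highest in replicate 4. Tie1 (SD 0.08) and Eng (SD 0.07), which most endothelium expresses, were constant.

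Of 19 genes often used as references, 6 had an SD under 0.1. These were 6 of the 16 with a mean of at least 500 (37.5%). That share is near the 30.6% of all genes at that mean. The cyclophilin gene Ppia stood at 7974, 8188, 8377 and 7785 (SD 0.05). Actb, the cytoskeletal actin gene, stood at 37015, 29847, 32590 and 32807 (SD 0.13), and the glycolytic enzyme gene Gapdh at 4918, 3862, 3701 and 3396 (SD 0.23). Tfrc, the transferrin receptor gene, stood at 623, 557, 773 and 837 (SD 0.27), and B2m, given above, had the largest SD of these 19 (0.49). Thus B2m differed 2.06-fold between the lungs of 1 group and Ppia 1.08-fold.

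For background, the same genes and lists were measured in the 4 lungs with WT marrow, without a test of the difference. There the median SD was 0.16, 502 of the 13376 genes (3.75%) had an SD of at least 0.5 and 48 one of at least 1. Of the 1152 variable genes 236 (20.5%) had an SD of at least 0.5 with WT marrow, and of the 1123 constant genes 578 (51.5%) had one under 0.1, compared with 39.6% of all genes with a mean of at least 500. The genes were chosen on the NOS-null marrow libraries, so these shares do not measure a difference between the groups. The neutrophil list had a spread of 0.54 with WT marrow, the interferon gamma list 0.06, the T cell list 0.30 and the glucocorticoid target list 0.32. Heart muscle genes had a spread of 0.43 and mesothelial genes 0.36 there, against 0.48 and 0.38 with NOS-null marrow. Over the 49 lists the spread was larger with NOS-null marrow in 29 and larger with WT marrow in 20. Among the latter were club and airway secretory genes, with 0.25 against 0.07 with NOS-null marrow, motile cilium genes, with 0.20 against 0.09, and skeletal muscle genes, with 0.25 against 0.10.

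**Figure D5:**
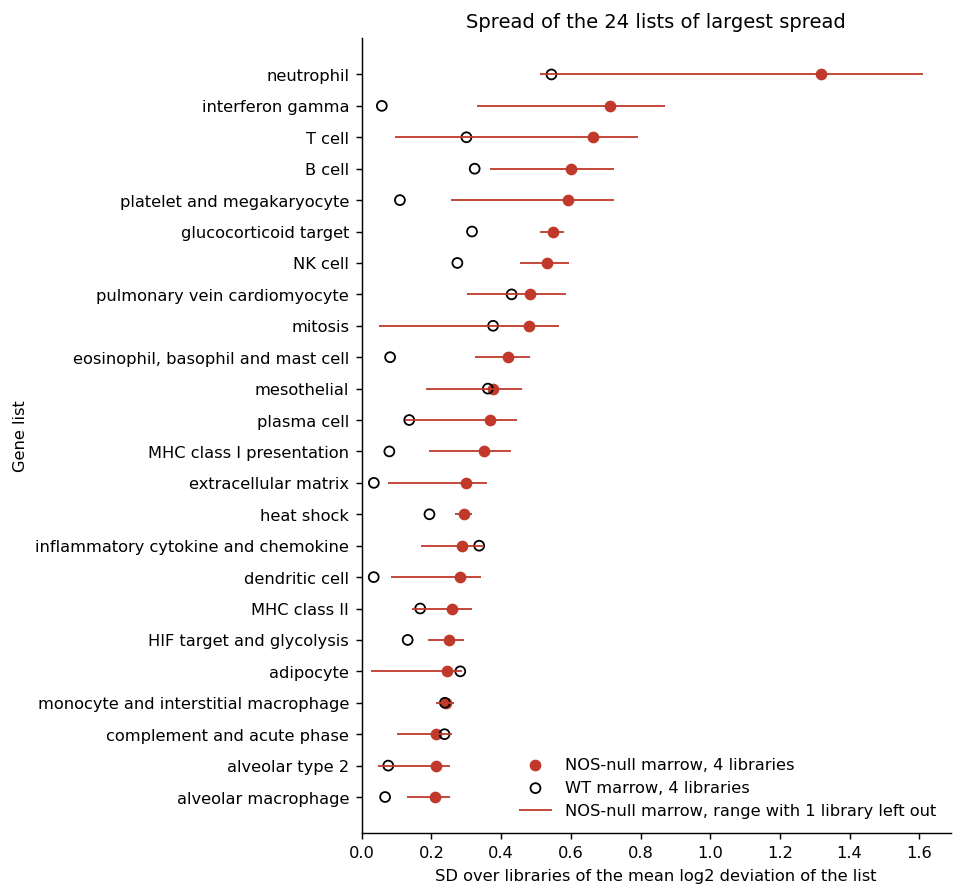
Spread (SD over libraries of the list's mean log2 deviation, horizontal axis) of the 24 lists of largest spread with NOS-null marrow (rows). Filled points are the 4 NOS-null marrow libraries, red lines the range with 1 library left out, and open points the 4 WT marrow libraries; the neutrophil list reaches 1.32, and the lines are short for glucocorticoid targets (0.51 to 0.58) and long for T cell and mitosis genes.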

How the data were processed

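Whole lungs of 8 mice were sequenced as 75 bp single reads, per the labels' protocols, and the 4 NOS-null marrow libraries were used. The labels give RNA integrity only as a range over all samples, and no batch or date. The tools named in the submitters' processing notes are CASAVA 1.8.2, TopHat2 2.0.13, Bowtie2 2.2.3, SAMtools 0.1.19 and Cufflinks 2.2.1, and the genome build is mm10. The annotation used is not given in the sources used here, nor are settings or strand. Values of near-identical copies and of genes on overlapping strands are therefore uncertain. The design text gives both groups the same marrow, so the titles of the samples were used for grouping. The labels do not say how replicates relate beyond naming mice.

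The deposited gene table holds signal, namely read counts that the authors had divided by a size factor for each library. From 98.6 to 98.8% of positive values lay within 0.05 of whole multiples of a step of 0.986 to 1.09, taken as 1 read. The deposited FPKM table of the authors served as an alternative, as log2(FPKM + 0.1). Values of 10 or more in all 4 libraries were required, 1 was added, and the SD (n − 1) of log2 values was taken. The counting SD is the square root of the reciprocal mean value, divided by the natural log of 2.

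The members and gene lists were chosen with earlier results of these data known, so no pattern of a list is independent support. Genes were named by rule: the 30 of highest SD, the 4 of highest SD and 2 of highest mean in each list, the 15 steadiest with a mean of at least 500, the 8 of largest gap per library and direction, and the 5 nearest in profile to the leading gene of each of the 6 lists of largest spread. Clone identifiers were left out of the first of these. Some genes that the rule names are not reported here. Further members are named as exceptions, checks or examples, chosen after their values were seen, as was the core of the heat shock element. Nearness is the largest absolute difference of centred log2 values over the 4 libraries. Promoters came from RefSeq (GRCm38.p6), matched by symbol for 16 of 28 interferon gamma and 22 of 27 heat shock genes. Alternatives were other pseudocounts, minimum values, scalings (median ratio, equal totals, trimmed mean of M values by its formula), FPKM, counting variance removed and each library left out. Computation used Python 3.11.15, numpy 2.4.6 and pandas 2.3.3, and was tested on simulated data.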

Additional observations from a re-analysis of the deposited data

Results flagged for a closer look

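Among the 153 genes named and 49 lists, a single library stood apart from the other 3, by a gap past Dixon's 95% critical value, in 34 genes and 5 lists. For genes the gap was taken here on scaled reads without logs, and for lists on mean log2 deviations. Not all of these genes pass on log2 values, and Ngp is one that does not. For normally distributed values chance alone flags about 1 in 20 groups of 4, a rate that need not hold for scaled reads. Genes of a list are not independent. The genes were named partly for such gaps, so their number is a description.

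Replicate 1 stood apart for the myeloid genes Ngp (3907 scaled reads there), Ifitm6 (2184), Il1r2 (1684), S100a8 (39729), S100a9 (29866), Mmp8 (5017), Retnlg (8178), Cxcr2 (2767), Asprv1 (1209.8), Pira1 (1116), Pira7 (303), Hk3 (226), Nlrp1b (83.0) and Relt (276). It also stood apart for the platelet genes Gp9 (128), Gp1bb (198) and Ppbp (435), the interferon genes Gbp2 (5879), Iigp1 (6787) and Oas3 (353), the endothelial kinase gene Bmx (285), the phosphatase gene Dusp6 (3613) and the keratin gene Krt18 (847). It was low for Pou2af1 (25.6). Replicate 2 stood apart for Cd4 (228), Cd5 (163), Icos (204), Cxcr3 (149), Cxcl9 (514) and Lyz2 (42138). Replicate 4 stood apart for Zfp488 (1232), Olfr613 (636), Olfr856-ps1 (687) and Arl8b (955). For Krt18, Lyz2 and Arl8b the whole range was narrow, with SDs of 0.06, 0.15 and 0.00806.

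Among the lists, the T cell list stood apart in replicate 2 (mean deviation 0.99), the mitosis list in replicate 1 (−0.72) and the adipocyte list in replicate 4 (−0.36). For the histone list in replicate 4 (−0.032) and the common reference genes in replicate 1 (0.095) the deviation was small.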

How the results depend on the processing

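The number of variable genes (1152) became 578 with a minimum of 50 in all 4 libraries, 1960 with 10 or more in at least 1 library and 5456 with no filter, and the number of strongly variable genes (151) became 80, 388 and 786 under the same settings. With a library left out they ran from 691 to 1344 and from 51 to 231, and the constant genes (1123) from 1109 to 1691, in each case with the largest departure without replicate 1, except that 231 was found without replicate 2. Pseudocounts of 0.5 and 8, FPKM values, removal of the counting variance and the 3 other scalings kept all 3 counts within 1.5 times. Of the list spreads, 10 moved by more under other processing and 235 did not, and 37 moved with a library left out while 159 did not. Of the SDs of named genes, 20 moved and 745 did not under other processing, and 99 moved and 513 did not with a library left out. The causes were not tested. No paired analysis was possible because the description uses 1 group and no test. With 4 libraries an SD is itself imprecise, and at means under 50 scaled reads the median SD (0.33) was close to that of counting (0.26).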

Other observations

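Airway genes varied in different directions. Of 25 club and airway secretory cell genes 10 were variable (40%, compared with 8.61% of all genes). Lowest in replicate 4 were 14 (compared with 25.0%), and the togetherness was 0.14. Bpifa1, an antimicrobial protein gene of the upper airway, stood at 1234, 492, 1230.5 and 525 scaled reads (SD 0.74), high in replicates 1 and 3. Clca1, also on the list, stood at 321, 344, 113 and 109.8 (SD 0.90), high in replicates 1 and 2. The cytochrome P450 gene Cyp2a5 stood at 456, 477, 233 and 134 (SD 0.87), lowest in replicate 4. Of 31 immediate early genes, which respond within minutes to signals, 5 were variable (16.1%, compared with 8.61% of all genes). Highest in replicate 1 were 17 (compared with 32.9%), and 15 were lowest in replicate 3 (compared with 21.4%). Dusp6, a phosphatase gene that limits ERK signals, stood at 3613, 1459, 1016 and 1171 (SD 0.82), and Egr2 at 20.5, 57.3, 43.4 and 41.3 (SD 0.61).

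Of the 1146 genes at 10 or more in 1 to 3 libraries, 237 had an SD of at least 1, and 41 of these reached 50 in some library. Stfa3, a stefin gene with close copies, stood at 402, 3.12, 0 and 2.18, and the basophil protease gene Mcpt8 at 9.23, 5.21, 3.94 and 35.9. The eosinophil receptor gene Ccr3 stood at 10.3, 5.21, 5.92 and 50.03, highest in replicate 4 like Mcpt8. Eif3j, a translation initiation factor gene, was at 159, 193, 144 and 0.226.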
